A study of Mus musculus with 12 samples.

Results

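Bile acids are made from cholesterol in hepatocytes, and the 10 genes described here carry out the main steps of their synthesis, their conjugation, and their return from portal blood into the hepatocyte. They are Cyp7a1, Cyp8b1, Cyp27a1, Cyp7b1, Akr1d1, Slc27a5 and Baat for synthesis and conjugation, and Slc10a1, Slco1a1 and Slco1a4 for uptake. They were chosen by name. Each of the 10 had exactly 1 probe set annotated to that gene alone, among 19938 genes measured. Liver RNA of 12 male mice on a C57Bl6/J background was hybridised to Affymetrix whole-transcript arrays, each liver to an array of its own, with 4 livers in each of 3 groups. The S534A LPS group carried, homozygously, a knock-in allele that puts alanine in place of serine in p65 (the Rela protein, a subunit of the transcription factor NF-kB), and was given lipopolysaccharide (LPS), the bacterial outer-membrane component that sets off innate immune signalling, at 1 µg/kg. The WT LPS group was wild type and had the same dose. The WT untreated group was wild type without LPS. The allele was made by gene targeting in PTL1 embryonic stem cells, is present in every cell of the animal and was bred into that background by repeated backcrosses. No untreated S534A liver was analysed here, so a difference between genotypes that was there before LPS and one that arose after it cannot be told apart. The sources used here give neither the age of the mice nor the interval from LPS to sampling. Titles of the untreated samples follow another naming scheme than those of the LPS samples, so a batch and the LPS treatment cannot be told apart. Values are deposited RMA expression values on the log2 scale, where a difference of 1 is a doubling, and the number of arrays limits their precision.

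Bile acid synthesis starts on a classic route, where Cyp7a1 is rate-limiting and Cyp8b1 decides how much cholic acid is formed, or on an alternative route through Cyp27a1 and Cyp7b1. Reduction of the sterol nucleus by Akr1d1, activation to a coenzyme A thioester by Slc27a5 and coupling to an amino acid, mainly taurine in mice, by Baat complete the conjugated bile acid. After secretion into bile and absorption in the gut, bile acids return to the liver, where Slc10a1 (NTCP) takes them up with sodium and the organic anion transporters of the Slco family take them up without it. The pathway is held in check by bile acids themselves through the receptor Nr1h4 (FXR) and its target Nr0b2 (SHP), and by the gut hormone FGF15 acting on the hepatocyte receptor Fgfr4 with its partner Klb. Inflammation and the circadian clock are both known to act on these genes in rodent liver.

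Several properties of the arrays bear on the values that follow. All 12 genes of a list of known LPS-responsive genes rose in WT LPS livers against WT untreated livers. The knock-in changes a codon, so the level of Rela does not check the genotype labels. Rela differed by 0.09 between S534A LPS and WT LPS livers (limma, adjusted p = 1), which does not show that its levels were equal. Hepatocyte markers were high on every array, with a mean over 10 genes of 13.41 to 13.47 in S534A LPS livers, 13.38 to 13.46 in WT LPS livers and 13.52 to 13.60 in WT untreated livers. A list of 15 exocrine pancreas genes was raised on S534A LPS replicate 3, where its mean was 8.998, and on WT LPS replicates 2 and 3, where it was 8.12 and 6.59, against 5.71 to 6.197 on the other 9 arrays. Among the WT untreated livers, replicates 2 and 4 stood apart from replicates 1 and 3 in genes of the circadian clock. Results that change without these arrays are given with and without them. In bulk liver RNA, fewer hepatocytes and less RNA per hepatocyte cannot be told apart.

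In WT livers given LPS, 5 of the 10 genes were lower than in WT untreated livers and none was higher. They were Cyp8b1 and Akr1d1 of synthesis and all 3 uptake transporters, Slc10a1, Slco1a1 and Slco1a4. The falls ran from 1.31-fold for Slc10a1 to 2.44-fold for Slco1a4 (limma on all 12 arrays, with p adjusted over all genes by Benjamini and Hochberg's method and a threshold of 0.05). Cyp7a1, Cyp7b1, Cyp27a1, Slc27a5 and Baat did not pass the test. In this comparison 15.6% of all genes were called lower and 9.34% higher, and 27.5% of the 6442 genes with a mean value of at least 8 were called lower. The median difference over the 10 genes was -0.43, against 0.02 over all genes. The same 5 genes were the ones for which all 4 WT LPS arrays lay below all 4 WT untreated arrays, an arrangement found downward in 14.9% of all genes.

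**Figure D1:**
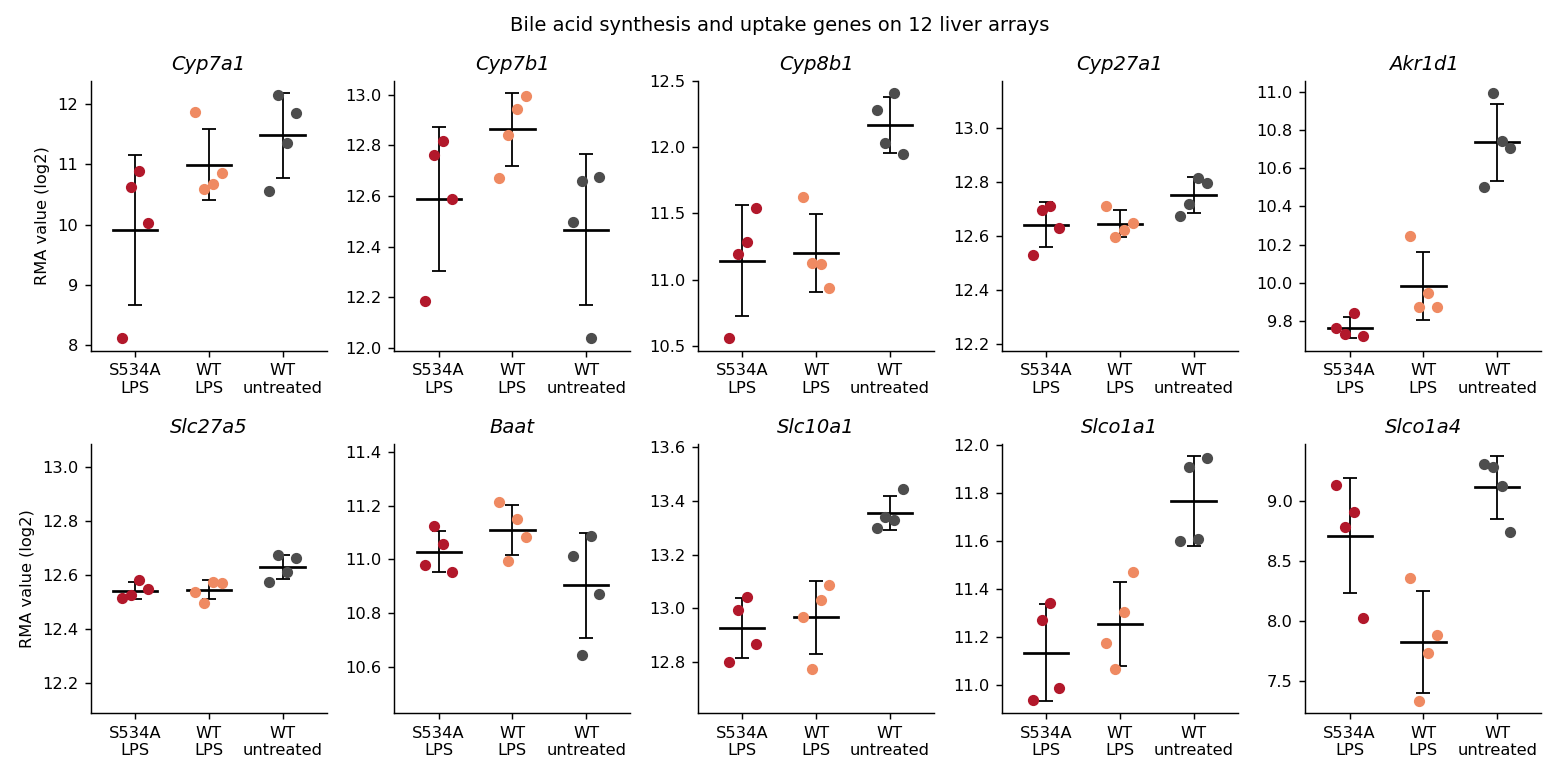
RMA values (log2) of the 10 genes on each array, in S534A LPS, WT LPS and WT untreated livers. Points are single livers, horizontal bars the group mean and whiskers the SD of 4 livers; each panel has its own vertical axis. All WT LPS points lie below all WT untreated points for Cyp8b1, Akr1d1, Slc10a1, Slco1a1 and Slco1a4, and the S534A LPS points of Slco1a4 lie between 8.02 and 9.13.

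Cyp7a1, the rate-limiting enzyme of the classic route, had the widest spread of the 10 genes. It read 8.11, 10.62, 10.88 and 10.03 on the S534A LPS arrays, 11.87, 10.59, 10.67 and 10.86 on the WT LPS arrays, and 10.56, 12.16, 11.35 and 11.86 on the WT untreated arrays. All 3 groups overlapped, and S534A LPS replicate 1 was the lowest liver by a wide margin. The pooled SD within groups was 0.90, larger than that of 99.85% of all genes. WT LPS livers averaged 10.996 ± 0.594 and WT untreated livers 11.48 ± 0.70 (SD, n = 4 each), a difference of -0.48 with a 95% interval of -1.65 to 0.68 (limma, adjusted p = 0.556). That interval holds both a 3.15-fold fall and a rise of 1.61-fold, so it does not settle whether Cyp7a1 changed, or in which direction.

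Cyp8b1, the sterol hydroxylase needed for cholic acid, was lower in LPS livers of both genotypes. Its values were 10.56, 11.19, 11.29 and 11.54 in S534A LPS livers, 11.62, 11.13, 11.12 and 10.94 in WT LPS livers, and 12.28, 12.03, 12.41 and 11.95 in WT untreated livers. Every LPS liver was below every untreated one. Cyp8b1 fell to 11.20 ± 0.29 in WT LPS livers, against 12.17 ± 0.21 in WT untreated livers, a 1.96-fold decrease (difference -0.97 ± 0.20, SE; limma, adjusted p = 0.00283). Without the 3 arrays with pancreas transcripts the difference was -0.89 and no longer passed (adjusted p = 0.0518).

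Akr1d1, the reductase that gives the sterol nucleus the bent shape of a bile acid, showed the smallest adjusted p of the 10 genes in both comparisons with untreated livers. It read 9.76, 9.73, 9.84 and 9.72 in S534A LPS livers, 10.25, 9.87, 9.95 and 9.87 in WT LPS livers, and 10.50, 10.99, 10.74 and 10.71 in WT untreated livers. The 3 groups did not overlap at all, with the S534A LPS livers lowest and the untreated livers highest. Mean values were 9.98 ± 0.18 in WT LPS livers and 10.74 ± 0.20 in WT untreated livers, a 1.68-fold decrease (difference -0.75 ± 0.10, SE; limma, adjusted p = 1.79e-04). This call held in each of the 24 other fits tried, with differences from -0.86 to -0.64.

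The proximal promoters of Cyp8b1 and Akr1d1 are shown because both genes fell in LPS livers and because their windows hold motifs of the nuclear receptors and clock factors measured on the same arrays. The RefSeq promoter table (build GRCm38.p6) holds windows of 300 bases for 6 of the 10 genes. The Cyp8b1 window runs from 250 bases before to 50 after the start of the gene in the gene table, as do the windows of Slc10a1 and Slco1a1 printed further on, whereas the Akr1d1 window is not placed so against its gene start. The motifs searched, on both strands, were CAAAGTCCA for HNF4, CAAGGNCA for LRH-1, the core motif AGGTCA of many nuclear receptors, GTTAAT for HNF1, the D-box TTATGNAA of Dbp, Tef, Hlf and Nfil3, and TTCNNNGAA for STAT5. The motifs were chosen after the sequences had been seen, and capitals mark every match. Negative positions count back from the gene start to the 5′ base of a match; those in Akr1d1 count from 1 at the 5′ end of the window. The Cyp8b1 window lies at chr9:121916256-121916555 on the minus strand, and the Akr1d1 window at chr6:37529923-37530222 on the plus strand.
Cyp8b1: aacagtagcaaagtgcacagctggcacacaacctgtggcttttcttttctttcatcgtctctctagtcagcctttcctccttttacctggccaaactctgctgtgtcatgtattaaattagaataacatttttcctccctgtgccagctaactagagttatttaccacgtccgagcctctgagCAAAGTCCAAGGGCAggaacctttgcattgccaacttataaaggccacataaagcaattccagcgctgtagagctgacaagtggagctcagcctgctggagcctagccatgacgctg
Akr1d1: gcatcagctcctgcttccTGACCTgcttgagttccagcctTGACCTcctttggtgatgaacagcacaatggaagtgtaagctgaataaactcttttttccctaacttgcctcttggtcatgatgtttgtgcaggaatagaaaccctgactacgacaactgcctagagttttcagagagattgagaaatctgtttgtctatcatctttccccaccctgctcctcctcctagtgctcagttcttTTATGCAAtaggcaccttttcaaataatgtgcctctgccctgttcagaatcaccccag
In Cyp8b1 the HNF4 motif at position -67 and the LRH-1 motif at position -60 overlap in a single stretch. In Akr1d1 the core motif stands in the reverse direction at positions 19 and 41 of the window, and a D-box lies at position 243. Of all 32851 windows in the table, 0.475% hold the HNF4 motif, 6.71% the LRH-1 motif, 16.3% the core motif and 3.38% the D-box. The windows of Cyp27a1 and Slco1a4 are not printed. That of Cyp27a1, which was not called in any comparison, holds a D-box. That of Slco1a4, which had the largest fall in WT LPS livers, holds none of the motifs. A match describes these letters only and shows no binding.

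On the alternative route, neither gene was called. Cyp27a1, the mitochondrial sterol hydroxylase that opens this route and also shortens the side chain on the classic one, varied little, from 12.53 to 12.71 in S534A LPS livers, from 12.60 to 12.71 in WT LPS livers and from 12.67 to 12.82 in WT untreated livers. Its pooled SD of 0.068 was among the small ones, since 9.66% of genes had a smaller SD. The difference between WT LPS and WT untreated livers was -0.11, with an interval of -0.24 to 0.02 (limma, adjusted p = 0.231). Cyp7b1, the oxysterol hydroxylase of the same route, read 12.19, 12.76, 12.82 and 12.59 in S534A LPS livers, 12.67, 12.84, 12.94 and 13.00 in WT LPS livers, and 12.50, 12.66, 12.04 and 12.68 in WT untreated livers. It averaged 12.86 ± 0.14 in WT LPS livers and 12.47 ± 0.30 in WT untreated livers, opposite in sign to Cyp8b1 and Akr1d1 (difference 0.40, interval 0.05 to 0.74; limma, adjusted p = 0.0887). The Cyp7b1 difference passed the threshold without untreated replicates 2 and 4 (0.60, adjusted p = 0.0342), with array weights and after repeated quantile normalisation, and was 0.20 without untreated replicates 1 and 3 (adjusted p = 0.372).

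The conjugating enzymes differed little between groups. Slc27a5, the bile acid coenzyme A ligase, ran from 12.51 to 12.58 in S534A LPS livers, from 12.50 to 12.58 in WT LPS livers and from 12.57 to 12.67 in WT untreated livers. Only 0.853% of genes had a smaller pooled SD, and the interval of the WT LPS difference was -0.19 to 0.02 (limma, adjusted p = 0.253). A fall in Slc27a5 as large as that of Slc10a1, the smallest fall called, lies outside that interval. Baat, the amino acid transferase, read 10.98, 11.12, 11.06 and 10.96 in S534A LPS livers, 11.21, 10.99, 11.15 and 11.08 in WT LPS livers, and 11.01, 10.65, 11.09 and 10.87 in WT untreated livers. The groups overlapped, and WT LPS livers differed from WT untreated livers by 0.20, with an interval of 0.01 to 0.40 (limma, adjusted p = 0.126). Without untreated replicates 1 and 3 the Baat difference was 0.35 and passed (adjusted p = 0.0165), and without replicates 2 and 4 it was 0.06 (adjusted p = 0.719).

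Slc10a1, the sodium-dependent carrier that takes up most conjugated bile acids, was lower in every LPS liver than in any untreated one. It read 12.80, 13.00, 13.04 and 12.87 in S534A LPS livers, 12.97, 12.78, 13.03 and 13.09 in WT LPS livers, and 13.30, 13.34, 13.33 and 13.44 in WT untreated livers. WT LPS livers averaged 12.97 ± 0.14 and WT untreated livers 13.35 ± 0.06, a 1.31-fold decrease (difference -0.39 ± 0.08, SE; limma, adjusted p = 0.00282). The call held in each of the 24 other fits, with differences from -0.43 to -0.30.

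Slco1a1, an organic anion transporter that is more abundant in male than in female mouse liver, showed a like order. Its values were 10.93, 11.27, 11.34 and 10.99 in S534A LPS livers, 11.17, 11.06, 11.30 and 11.47 in WT LPS livers, and 11.60, 11.91, 11.61 and 11.95 in WT untreated livers. Slco1a1 was 1.43-fold lower in WT LPS livers, at 11.25 ± 0.18, than in WT untreated livers, at 11.77 ± 0.19 (difference -0.51 ± 0.12, SE; limma, adjusted p = 0.00746). Among the WT untreated livers, replicates 2 and 4 were the higher ones. Without them the difference was -0.35 and did not pass (adjusted p = 0.0946), and without the arrays with pancreas transcripts it was -0.44 (adjusted p = 0.0662).

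The promoter windows of Slc10a1 (chr12:80968656-80968955) and Slco1a1 (chr6:141946913-141947212), both on the minus strand of GRCm38.p6, are shown because the levels of these transporters were the most closely tied across arrays of all pairs among the 10 genes.
Slc10a1: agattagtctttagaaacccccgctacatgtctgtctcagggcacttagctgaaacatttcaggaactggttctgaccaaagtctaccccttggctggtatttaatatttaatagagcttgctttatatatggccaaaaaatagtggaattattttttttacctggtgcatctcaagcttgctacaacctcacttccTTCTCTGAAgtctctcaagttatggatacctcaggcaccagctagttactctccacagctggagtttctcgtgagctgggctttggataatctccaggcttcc
Slco1a1: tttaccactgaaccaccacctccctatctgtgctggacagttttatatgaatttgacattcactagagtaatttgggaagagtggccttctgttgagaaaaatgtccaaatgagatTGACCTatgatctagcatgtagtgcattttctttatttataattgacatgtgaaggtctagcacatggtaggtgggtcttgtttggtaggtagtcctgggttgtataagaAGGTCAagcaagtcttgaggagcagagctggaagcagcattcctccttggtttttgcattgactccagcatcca
The printed window of Slc10a1 holds a STAT5 motif at position -53, as do 8.3% of all windows, and Slco1a1 holds the nuclear receptor core motif in reverse at position -134 and forward at position -24. RefSeq lists another window for Slc10a1, not printed here, which also holds the core motif and a D-box.

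Slco1a4, the organic anion transporter next in the same gene cluster on chromosome 6 and also made by endothelial cells, had the largest fall in WT LPS livers of the 10 genes. It read 9.13, 8.78, 8.91 and 8.02 in S534A LPS livers, 8.36, 7.33, 7.73 and 7.88 in WT LPS livers, and 9.31, 9.28, 9.12 and 8.74 in WT untreated livers. The WT LPS livers were lowest, and the S534A LPS livers overlapped both other groups. WT LPS livers averaged 7.82 ± 0.42 and WT untreated livers 9.11 ± 0.26, a 2.44-fold decrease (difference -1.29 ± 0.24, SE; limma, adjusted p = 0.00173). It held in each of the 24 other fits, with differences from -1.47 to -0.996. Whether the probes of Slco1a1 and Slco1a4 also bind transcripts of neighbouring family members was not tested.

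Markers of non-parenchymal cells moved in WT LPS livers against WT untreated livers, where 15.6% of all genes were called lower and 9.34% higher. Of 10 sinusoidal endothelial markers 5 fell and 1 rose in WT LPS livers, and their mean level was 8.72 to 9.02 in S534A LPS livers, 8.75 to 9.22 in WT LPS livers and 9.41 to 9.59 in WT untreated livers. Of 11 neutrophil markers 9 rose, with mean levels of 6.96 to 7.27 in S534A LPS livers, 6.58 to 6.85 in WT LPS livers and 5.47 to 5.60 in WT untreated livers. Stellate cell markers fell in 7 of 10, and Kupffer cell markers fell in 5 and rose in 1 of 10. Hepatocyte markers fell in 4 of 10, with a median difference of -0.12. Pericentral markers, which label the hepatocytes where Cyp7a1 and Cyp8b1 are mainly made, fell in 2 of 12, Lgr5 by 1.58 and Lect2 by 0.38. Of 9 periportal markers 1 rose, and none of 8 cholangiocyte and 15 exocrine pancreas markers passed. Between S534A LPS and WT LPS livers, where 0.171% of all genes were called in either direction, 2 of the 11 neutrophil markers were higher. No marker of the other cell types passed. The part of these shifts in the results for the bile acid genes was not tested.

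**Figure D2:**
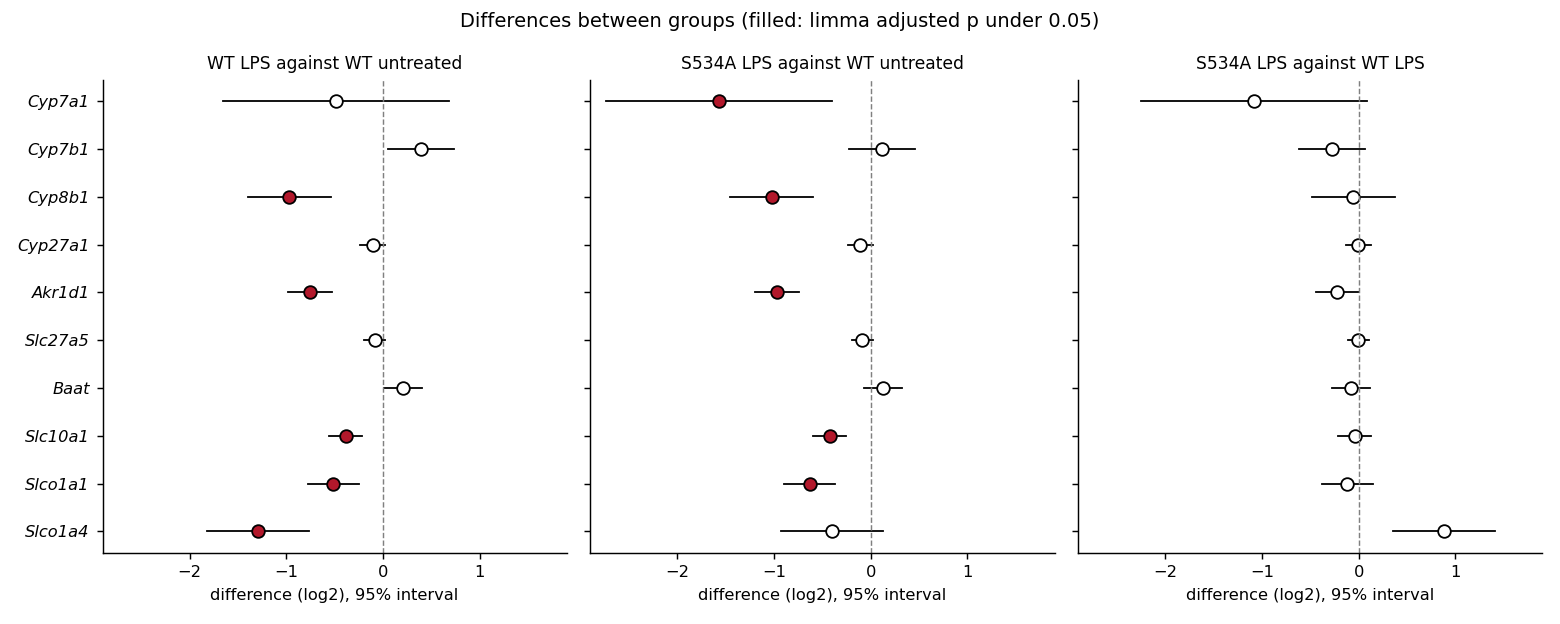
Differences in log2 value with 95% intervals (limma) for the 10 genes in 3 comparisons: WT LPS against WT untreated (left), S534A LPS against WT untreated (middle) and, between genotypes, S534A LPS against WT LPS (right). Filled points have an adjusted p under 0.05: there are 5 in each comparison with untreated livers and none between the genotypes.

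S534A livers given LPS had 5 of the 10 genes lower than WT untreated livers and none higher. The called genes were Cyp7a1, Cyp8b1, Akr1d1, Slc10a1 and Slco1a1; Slco1a4 was not among them. Of all 19938 genes, 16.0% were called lower in this comparison and 2188 genes were called higher. Of genes with a mean of at least 8, 28.0% were called lower. The median over the 10 genes was -0.41, against 0.03 over all genes. This comparison shares its WT untreated arrays with the WT LPS comparison, so the agreement between the 2 is not independent.

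Cyp8b1 was 2.04-fold lower in S534A LPS livers, at 11.14 ± 0.42, than in WT untreated livers (difference -1.03 ± 0.20, SE; limma, adjusted p = 0.00160). Akr1d1 averaged 9.76 ± 0.06 in S534A LPS livers and was 1.96-fold lower than in WT untreated livers (difference -0.97 ± 0.10; limma, adjusted p = 1.60e-05). Both uptake genes that were called fell by less, Slc10a1 by 1.34-fold and Slco1a1 by 1.55-fold (limma, adjusted p = 0.00117 and 0.00161). For Slco1a4 the S534A LPS mean was 8.71 ± 0.48, and the difference from WT untreated livers was -0.40 with an interval of -0.93 to 0.12 (limma, adjusted p = 0.261).

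Cyp7a1 averaged 9.91 ± 1.25 in S534A LPS livers and 11.48 ± 0.70 in WT untreated livers, a 2.97-fold difference just past the threshold (difference -1.57 ± 0.54, SE; limma, adjusted p = 0.0471). The groups overlapped, and the size rested on S534A LPS replicate 1, without which the difference was -0.97 (adjusted p = 0.101). The call held in 5 of 12 fits that leave out 1 array. It was lost without S534A LPS replicate 1 or 4, WT LPS replicate 3 or 4, or WT untreated replicate 2, 3 or 4, with adjusted p-values of 0.0265 to 0.124 over the 12 fits. Without untreated replicates 2 and 4 the difference was -1.04 (adjusted p = 0.327), and without replicates 1 and 3 it was -2.10 (adjusted p = 0.0307).

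Between the genotypes under LPS, none of the 10 genes was called. Only 34 of all genes, 0.171%, were called in either direction at an adjusted p under 0.05 by limma; at an unadjusted p under 0.05, 840 genes were higher and 308 lower in S534A LPS livers. The median over the 10 genes was -0.07. Slco1a4 had the largest positive difference: S534A LPS livers averaged 8.71 ± 0.48 and WT LPS livers 7.82 ± 0.42, a 1.85-fold higher mean with an interval of 0.36 to 1.41 on the log2 scale, and the groups overlapped (limma, adjusted p = 0.291). With array weights, which count outlying arrays for less, the Slco1a4 difference was 0.88 and passed (adjusted p = 0.0282); in the other 23 fits it ranged from 0.53 to 1.11 and did not pass.

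Akr1d1 was the only gene of the 10 whose S534A LPS livers all lay on one side of the WT LPS livers, below them, with a difference of -0.22 and an interval of -0.45 to 0.01 (limma, adjusted p = 0.905). Without WT LPS replicate 1 the Akr1d1 difference was -0.13. Downward separation of this kind occurred in 1.18% of all genes. Cyp7a1 differed by -1.09, with an interval of -2.26 to 0.08 (adjusted p = 0.932), and without S534A LPS replicate 1 by -0.49. For the tightly measured genes the intervals were narrow: -0.11 to 0.11 for Slc27a5, -0.13 to 0.13 for Cyp27a1, -0.21 to 0.13 for Slc10a1 and -0.28 to 0.12 for Baat. Those of Slco1a1 (-0.38 to 0.14), Cyp8b1 (-0.48 to 0.37) and Cyp7b1 (-0.62 to 0.07) were wider. None of these p-values shows that the genotypes were alike.

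The rest of the pathway was read from lists of other genes of bile acid handling. Beside each count in WT LPS livers against WT untreated livers stand the shares of all genes, 15.6% called lower and 9.34% higher. Of genes with a mean of at least 8, 27.5% were called lower. Among 16 further synthesis genes, 7 fell and 1 rose in WT LPS livers against WT untreated livers, with a median of -0.20. The gene that rose was Ch25h, a cholesterol hydroxylase, which makes an oxysterol and is known to be induced in macrophages by LPS. Ch25h read 8.19, 8.26, 7.86 and 8.71 in S534A LPS livers, 7.25, 6.87, 7.05 and 7.38 in WT LPS livers, and 6.05, 5.90, 6.05 and 5.90 in WT untreated livers. The 3 groups did not overlap, with the S534A LPS livers highest. Ch25h was 2.24-fold higher in WT LPS than in WT untreated livers (limma, adjusted p = 1.09e-04), and 2.17-fold higher in S534A LPS than in WT LPS livers (limma, adjusted p = 0.0136). Between the genotypes, where 0.171% of all genes were called, Ch25h was the only gene called in either direction in these lists of synthesis, uptake, export and regulation.

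Among the synthesis genes that fell, the smallest p-values belonged to Amacr, the racemase of the side chain, Hsd3b7, the dehydrogenase that follows Cyp7a1, and Abcd3, which carries bile acid intermediates into the peroxisome. Amacr was 10.87 to 11.12 in S534A LPS livers, 10.87 to 11.08 in WT LPS livers and 11.51 to 11.90 in WT untreated livers, without overlap between LPS and untreated livers. Differences between WT LPS and WT untreated livers were -0.66 for Amacr, -0.43 for Hsd3b7 and -0.36 for Abcd3 (limma, adjusted p = 1.81e-04, 0.0115 and 0.0156).

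Other uptake genes gave 3 falls and no rise among 8 measured. Slc10a5, a relative of Slc10a1, fell by 0.97 in WT LPS livers, Slco2b1, another organic anion transporter, by 0.58, and Ephx1, microsomal epoxide hydrolase, by 0.53 (limma, adjusted p = 2.28e-05, 3.26e-04 and 7.89e-04). The ileal carrier Slc10a2 differed by 0.81 and did not pass (adjusted p = 0.0505), and its WT untreated values were 7.70 to 7.79 on replicates 1, 2 and 4 but 9.15 on replicate 3. Of 12 export genes, 4 fell and 1 rose, against 15.6% of all genes called lower and 9.34% higher. Among genes with a mean of at least 8, 27.5% were called lower. Slc51b, a subunit of the basolateral bile acid exporter, rose by 0.75, while the canalicular pump Abcc2 fell by 0.71, the flippase Atp8b1 by 0.65 and the sterol transporter subunit Abcg8 by 0.95 (limma, adjusted p = 5.45e-05, 3.45e-04, 0.0121 and 0.0159).

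**Figure D3:**
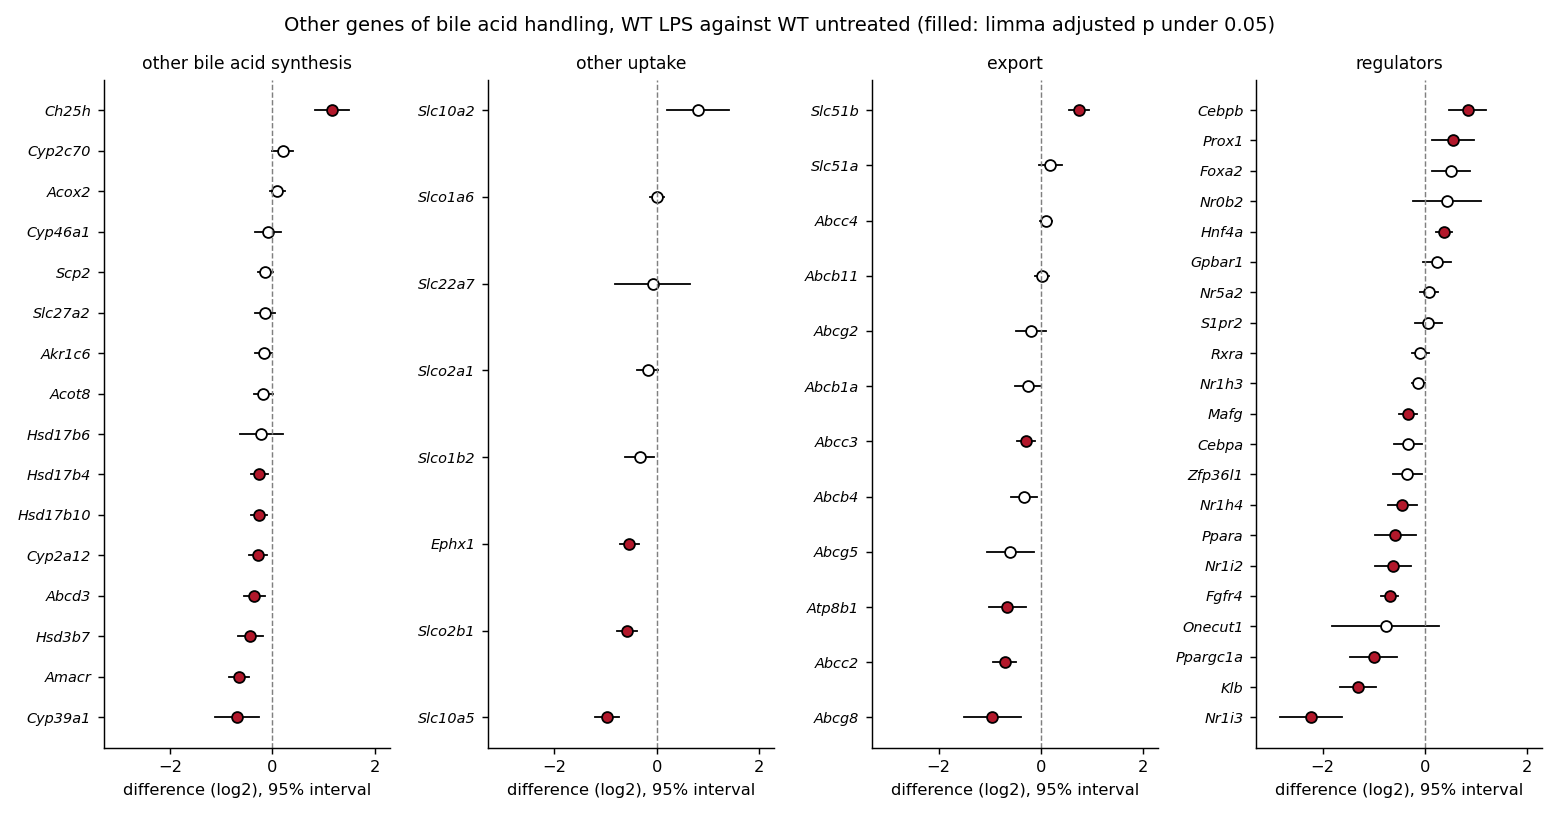
Differences in log2 value between WT LPS and WT untreated livers with 95% intervals (limma) for 16 other synthesis genes, 8 other uptake genes, 12 export genes and 21 regulators. Filled points have an adjusted p under 0.05; those to the right of 0 are Ch25h, Slc51b, Cebpb, Prox1 and Hnf4a, and Nr1i3 is lowest, at -2.23.

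Among 21 regulators of the pathway, 8 fell and 3 rose in WT LPS livers, with a median of -0.33. The shares of all genes were 15.6% called lower and 9.34% higher, and 27.5% of genes with a mean of at least 8 were called lower. Nr1i3 (CAR), a receptor for foreign compounds and bile acid derivatives, fell most, by 2.23, with values of 8.60 to 8.86 in WT LPS livers and 10.22 to 11.62 in WT untreated livers (limma, adjusted p = 7.54e-05). Klb and Fgfr4, the receptor pair for FGF15, fell by 1.31 and 0.69 (limma, adjusted p = 5.64e-05 and 2.11e-05). Ppargc1a, a coactivator that raises Cyp7a1 in fasting, fell by 1.00, and the bile acid receptor gene Nr1h4 by 0.44. Cebpb, a factor of the acute phase response, rose by 0.84 and Hnf4a, which drives many of these genes in hepatocytes, by 0.38 (limma, adjusted p = 0.00262 and 0.00166).

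Nr0b2, the repressor SHP, had values of 11.29, 11.13, 10.73 and 10.70 in S534A LPS livers, 10.05, 11.21, 10.49 and 10.69 in WT LPS livers, and 10.87, 10.01, 10.50 and 9.33 in WT untreated livers. The groups overlapped, and no comparison was called. In S534A LPS livers against WT untreated livers, 12 of 21 regulators fell and 3 rose. Those that fell included Ppara, by 1.01, and Onecut1 (HNF6), by 1.61 (limma, adjusted p = 0.00121 and 0.0247). In the same comparison 7 of 16 other synthesis genes fell and 1 rose, and 4 of 8 other uptake genes fell. Of 12 export genes 2 fell and 1 rose. Among all 19938 genes 16.0% were called lower there and 2188 genes were called higher. Of genes with a mean of at least 8, 28.0% were called lower.

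Because liver bile acid genes are under circadian control in mice, genes of the clock were read on the same arrays. Dbp, a clock output factor that binds the D-box, read 8.58, 8.91, 9.39 and 8.36 in S534A LPS livers, 8.80, 9.39, 9.47 and 9.47 in WT LPS livers, and 8.14, 11.19, 7.59 and 11.39 in WT untreated livers. Arntl (BMAL1), the core activator, read 8.61, 7.93, 7.42 and 8.21 in S534A LPS livers, 8.83, 7.37, 7.52 and 7.44 in WT LPS livers, and 9.03, 6.29, 9.08 and 6.20 in WT untreated livers. Untreated replicates 2 and 4 were thus high in Dbp and low in Arntl, replicates 1 and 3 were the reverse, and the LPS livers lay between them in both genes. Of 15 clock genes, 2 rose (Nfil3 and Nr1d1) and 2 fell (Cry1 and Hlf) in WT LPS livers. Among all genes 9.34% were called higher and 15.6% lower, so these counts do not set the clock list apart.

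**Figure D4:**
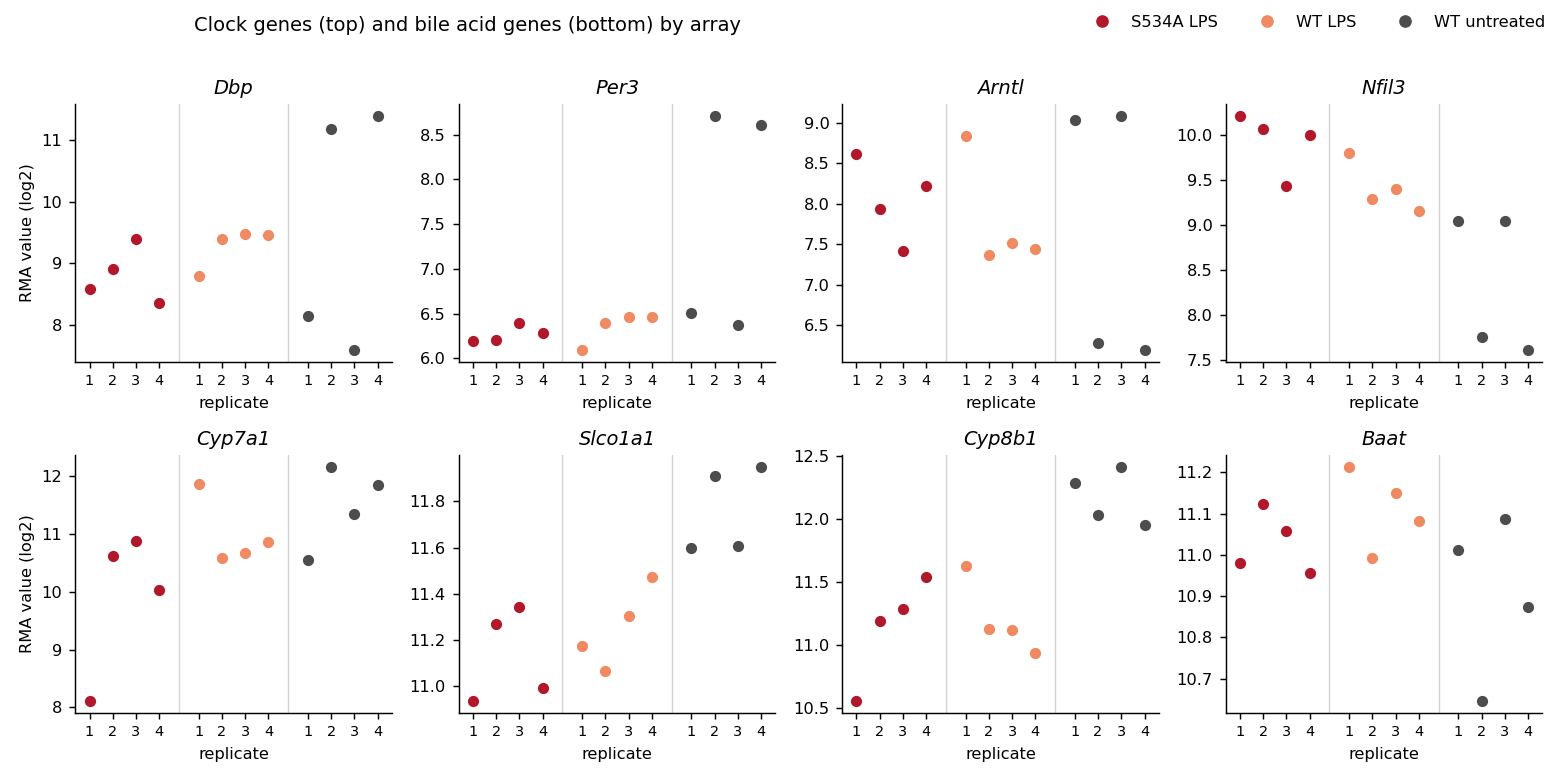
RMA values (log2) by array for the clock genes Dbp, Per3, Arntl and Nfil3 (top) and the bile acid genes Cyp7a1, Slco1a1, Cyp8b1 and Baat (bottom), in S534A LPS, WT LPS and WT untreated livers; each point is 1 liver. Among WT untreated livers, replicates 2 and 4 are higher than replicates 1 and 3 in Dbp, Per3, Cyp7a1 and Slco1a1, and lower in Arntl, Nfil3, Cyp8b1 and Baat.

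The bile acid genes were read by this split of the untreated livers. Cyp7a1 was 12.16 and 11.86 in untreated replicates 2 and 4, against 10.56 and 11.35 in replicates 1 and 3, and Slco1a1 was 11.91 and 11.95 against 11.60 and 11.61. Cyp8b1 went the other way, at 12.03 and 11.95 in replicates 2 and 4 against 12.28 and 12.41 in replicates 1 and 3, as did Baat, at 10.65 and 10.87 against 11.01 and 11.09. Cyp7b1, Slc27a5 and Slc10a1 were higher in replicates 2 and 4, while Akr1d1, Cyp27a1 and Slco1a4 overlapped between the pairs. For Slc10a1 the pairs were close, at 13.34 and 13.44 against 13.30 and 13.33. With 2 livers on each side this split was given no test, and the share of all genes that follow it was not counted. Whether the bile acid genes follow it more often than other genes is therefore not known. Over the 12 arrays, deviations from the group means of Dbp had a Pearson correlation of 0.70 with those of Slco1a1, 0.69 with Cyp7b1, 0.40 with Cyp7a1, -0.43 with Cyp8b1 and -0.69 with Baat. Dbp varied most among the 4 untreated arrays, and these correlations are given as a description. The sources used here do not give the hour at which livers were taken, and its part in the differences was not tested.

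Without untreated replicates 2 and 4, 4 of the 10 genes fell and 1 (Cyp7b1) rose in WT LPS livers, where 12.4% of all genes were called lower and 8.46% higher, and Cyp7a1 differed by 0.04. Without replicates 1 and 3, 5 fell and 1 (Baat) rose, where 15.5% of all genes were called lower and 10.1% higher, and Cyp7a1 differed by -1.01. Cyp8b1, Akr1d1, Slc10a1 and Slco1a4 were called lower in WT LPS livers whichever pair of untreated livers was left out.

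The 10 genes did not vary as a block among livers of the same group. Of 45 pairs, 32 had a positive correlation of their deviations from the group means over the 12 arrays, with a median of 0.30. Slc10a1 and Slco1a1 were the closest pair, at 0.87, followed by Cyp7a1 and Cyp27a1 at 0.82, whereas Slco1a1 and its neighbour Slco1a4 gave 0.07. The lowest value was -0.36, for Cyp7b1 and Baat. Deviations of Nr0b2 correlated with those of Cyp7a1 at -0.63 and of Slc27a5 at -0.75, while deviations of Nr1i3 correlated with those of Slc27a5 at 0.82. Such values were not particular to these regulators. Slc27a5 gave 0.86 with Cebpa and 0.82 with both Nr1h4 and Nr5a2. Nr1h4 also gave 0.67 with Cyp7a1 and 0.89 with Slc10a1. The values named here were picked from those of all regulators and clock genes. All points share their arrays and normalisation.

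Among 1799 other genes with a mean of at least 7 and an SD of deviations of at least 0.2, those whose deviations were most like each member were named from the same measure over the 12 arrays. For Cyp7a1 they were Rrm2, Slc2a2 and Pdk1 (0.87, 0.86 and 0.86). For Cyp8b1 they were Cdyl2, Zfhx4 and Serinc2 (0.88, 0.86 and 0.85), and for Akr1d1 they were Sh2d4a, D16Ertd472e and Plce1 (0.84, 0.82 and 0.82). Slc10a1 was most like Slc35a3, Car1 and Bbox1 (0.92, 0.91 and 0.91), and Slco1a1 most like Gm14403, Zfp445 and Stard4 (0.93, 0.90 and 0.89). For Slco1a4 they were Fyn, Gpr182 and Emcn (0.83, 0.83 and 0.82), of which Gpr182 is on the list of sinusoidal endothelial markers used above. Values for the other markers of that list are not given here. As the highest of 1799 genes over 12 arrays, all these correlations are high by selection, and they were given no test.

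Male-biased genes were read because Slco1a1 is more abundant in male mouse liver. Of 9 measured, 2 fell in WT LPS livers against WT untreated livers, none rose and 7 did not pass. In this comparison 15.6% of all genes were called lower, and 27.5% of genes with a mean of at least 8. The count therefore does not set this list apart from other genes. Hsd3b5, a steroid dehydrogenase made almost solely in male liver, was 10.45 to 10.59 in S534A LPS livers, 10.74 to 11.35 in WT LPS livers and 12.46 to 12.73 in WT untreated livers, with no overlap between any 2 groups. The fall in WT LPS livers was 2.89-fold (limma, adjusted p = 7.29e-07). Cyp2u1 fell 2.66-fold (limma, adjusted p = 3.91e-06). Of 8 female-biased genes, 1 fell and none rose.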

How the data were processed

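Liver RNA was amplified, labelled with biotin and hybridised to 1-colour Affymetrix arrays, per the labels' protocols. The authors made the deposited log2 values with RMA, per the submitters' processing notes; the sources used here name neither its version nor the annotation's build. They were used as deposited (35556 probe sets; array medians 6.15 to 6.32). Probe sets with 1 gene symbol (21789) were kept, 1621 with several symbols and 12146 with none were left out, and for the 999 genes with several probe sets the one with the highest mean was used, which left 19938 genes.

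Groups were compared over all 12 arrays with limma 3.58.1 in R 4.3.3 (lmFit, eBayes; 9 residual and 3.54 prior degrees of freedom), with Benjamini-Hochberg adjustment over all genes and a two-sided threshold of 0.05; no batch is given in the labels. Replicates are separate livers, numbered within groups, and arrays correlated within groups at 0.983 to 0.996. On simulated data made for the comparison of S534A LPS with WT LPS (19938 genes, 50 changed per size), the fit recovered 70% of changes of 0.5, 88% of 0.75 and 98% of 1 on the log2 scale, with 10 false calls. For WT LPS against WT untreated it recovered 60%, 88% and 94%, with 11 false calls. The changed genes were drawn at random from all genes, with normal noise and no other difference between groups. These rates are therefore not those of genes with a wide spread. The unadjusted p needed to pass also depends on how many genes change. That number was set in the simulation, so the rates are not those of the real comparisons. The pooled SD of Cyp7a1 was larger than that of 99.85% of genes, and that of Slco1a4 larger than that of 98.69%.

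The 10 genes and all lists (18 lists, 206 of 224 symbols measured) were chosen with earlier results of these data known. All 10 genes are named in each comparison; from other lists, the 4 with the smallest p in WT LPS against WT untreated; any clock gene or regulator may be named as a value; and, for each of the 10 called in that comparison and for Cyp7a1, the 3 other genes of most like pattern. Sequences are from RefSeq, GRCm38.p6. Alternatives were leave-one-out fits, other variance models, array weights, scalings, probe set rules, thresholds and a replicate block; 3 that leave out several arrays were chosen after the data had been seen.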

Additional observations from a re-analysis of the deposited data

Results flagged for a closer look

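Dixon's test was applied to the 10 genes, the regulators and the clock genes in each group of 4 arrays, 138 sets in all. None of the 30 sets of the 10 bile acid genes held a liver beyond Dixon's 95% limit. The test weighs the gap to the nearest liver against the range of the set, so a wide gap can stay within the limit. Cyp7a1 on S534A LPS replicate 1 was 8.11, with the nearest of the other S534A LPS livers at 10.03, and was not marked. In 7 sets of the other genes 1 liver stood apart by more than Dixon's 95% limit, and chance alone marks about 5% of sets. On WT LPS replicate 1, Arntl was 8.83, with the nearest of the other WT LPS livers at 7.52, and Dbp was 8.80, with the nearest at 9.39. On WT LPS replicate 2, Clock was 9.24 (nearest 9.72), Nr1h4 was 9.78 (nearest 10.19) and the bile acid receptor gene Gpbar1 was 7.61 (nearest 7.11); this is the array on which pancreas genes averaged 8.12. On S534A LPS replicate 2, Hnf4a was 12.62 (nearest 12.48), and on S534A LPS replicate 3, Nr5a2 (LRH-1), a regulator of Cyp7a1 and Cyp8b1, was 10.31 (nearest 10.16).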

How the results depend on the processing

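Of 720 differences of the 10 genes under 24 other fits, 680 kept their sign and side of the threshold, 16 lost a call, 6 gained one and 18 changed sign, none of the 18 called; causes were not tested. The number of the 10 genes called in WT LPS against WT untreated was 5 in every leave-one-out fit, 3 at a change of at least 1.5-fold and 3 without the arrays with pancreas transcripts. Between S534A LPS and WT LPS it was 0 in every leave-one-out fit and 1 (Slco1a4) with array weights; S534A LPS against WT untreated gave 4 to 5 in leave-one-out fits, 4 without untreated replicates 2 and 4, and 6 without replicates 1 and 3, where Baat rose (0.27, adjusted p = 0.0485). Replicate numbers gave no sign of a pairing of the samples. Deviations from the group means, over all genes, of same-numbered S534A LPS and WT LPS arrays correlated at 0.06, -0.23, 0.06 and -0.12. Not every array was closest to its own number, and such values do not show that no pairing existed. With the replicate block, members called were 5 in WT LPS and 4 in S534A LPS against WT untreated (Cyp7a1 lost, adjusted p = 0.0646) and 0 between genotypes. Signs changed without untreated replicates 2 and 4 for Cyp7a1 in WT LPS (0.043) and Baat in S534A LPS (-0.020), and without replicates 1 and 3 for Cyp7b1 in S534A LPS (-0.080), each against WT untreated. Array weights turned Cyp8b1 (0.024) and Cyp27a1 (0.0099), and repeated quantile normalisation turned Cyp27a1 (0.0094) and Slc27a5 (0.0019), all between S534A LPS and WT LPS. Leave-one-out fits crossed 0 for Cyp7b1 in S534A LPS against WT untreated (-0.024 to 0.25, negative without untreated replicate 3) and, between S534A LPS and WT LPS, for Cyp8b1 (-0.19 to 0.14), Cyp27a1 (-0.026 to 0.034), Slc27a5 (-0.019 to 0.0069) and Slc10a1 (-0.10 to 0.00056). Over all genes, 34 were called between genotypes, against 476 with array weights, 17 with the replicate block, 9 at an adjusted p under 0.01, 1 without the pancreas arrays, 72 and 52 without untreated replicates 2 and 4 or 1 and 3, and 9 to 121 in leave-one-out fits; repeated quantile normalisation gave 38 higher and 8 lower, against 33 and 1. For WT LPS against WT untreated 4983 were called, against 3143 at 0.01, 1817 at 1.5-fold and 3227 without the pancreas arrays, and for S534A LPS against WT untreated 5369, against 2152 at 1.5-fold. Other scalings moved the median of all genes by at most 0.033. Akr1d1, Slc10a1 and Slco1a4 kept their calls in WT LPS livers in all 24 fits.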
